A study of Homo sapiens with 6 samples.

Results

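A set of 9 acid-base transport genes of gastric epithelium, chosen by symbol, was followed in AGS, a line of cells grown from a human gastric adenocarcinoma. They were the sodium-proton exchangers SLC9A2, SLC9A3 and SLC9A4, the bicarbonate and anion transporters SLC4A2, SLC4A7 and SLC26A6, and the carbonic anhydrases CA2, CA9 and CA12. All 9 had a row among the 60604 genes read, and 7 of the 9 had enough counts to be among the 17200 genes tested. Total RNA was sequenced from cells exposed for 24 h to 0.5 mM of indomethacin (n = 3 libraries) and from control cells labelled 0 mM (n = 3 libraries). Indomethacin is a non-steroidal drug against inflammation that inhibits cyclooxygenases. Both groups were AGS cells kept in DMEM with serum, with no other genotype or agent named, and the labels give neither a vehicle nor a culture time for the controls. The groups stand for a single line, and whether its libraries were grown as separate cultures is not stated, so the spread behind every p-value may be technical.

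Sodium-proton exchangers of the SLC9 family move a sodium ion into the cell for each proton they move out, which raises the pH of the cytosol. Anion exchangers of the SLC4 and SLC26 families trade bicarbonate for chloride, and sodium-bicarbonate cotransporters bring bicarbonate in. Carbonic anhydrases speed the conversion of carbon dioxide and water into bicarbonate and a proton, and so supply these transporters with their substrates. In the stomach these proteins serve acid secretion by parietal cells, bicarbonate secretion by surface cells and the recovery of cell pH and volume.

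Total counts were 17535435 to 20094302 in the indomethacin libraries and 20983189 to 23221077 in the control libraries. All 4 epithelial markers looked at (EPCAM, KRT8, KRT18 and KRT19) were abundant, with summed levels of 2580 to 2876 CPM (counts divided by the scaled library size in units of 1e6) in the indomethacin libraries and 3146 to 3632 CPM in the control libraries. EPCAM and KRT8 were lower in indomethacin. Summed immune and endothelial markers stayed under 1 CPM in every library. Fibroblast markers summed to 9.55 to 11.5 CPM in the indomethacin libraries and 4.12 to 6.48 CPM in the control libraries, nearly all of it COL1A1, and COL1A2 had 1 count in all. Mitochondrial genes took 16.7% to 19.7% of counts in the indomethacin libraries and 22.8% to 26.8% in the control libraries. A further fit left out mitochondrial and small structured RNAs. Its log2 fold changes, indomethacin over control, were -1.97 for SLC9A2, -7.16 for SLC9A4 and 1.09 for SLC4A7. Beyond that fit, the part of these differences in the results was not tested. The proton pump genes ATP4A and ATP4B, which define parietal cells, were near the floor of detection, with 26 and 3 counts over the indomethacin libraries and 13 and 7 over the control libraries.

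SLC9A4 and SLC9A2 fell, SLC4A7 rose, and the other 4 genes tested did not pass. Of the 7 tested, 2 were lower and 1 higher by the quasi-likelihood test of edgeR (Benjamini-Hochberg adjusted p under 0.05), against a background in which 31.0% of all genes tested were lower, 30.6% were higher and 61.6% changed in either direction. The share called among these genes is therefore not above that of genes in general. The libraries of both groups did not overlap for 4 of the 7, of which 3 were lower in indomethacin, as were 33.3% of all genes tested, and 1 was higher, as were 33.7%. The median log2 fold change was -0.05 over the 7 genes tested and 0.04 over all genes tested. Fold changes are those of indomethacin over control on counts scaled by TMM. In bulk RNA, fewer cells of a type and less RNA per cell cannot be told apart.

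**Figure D1:**
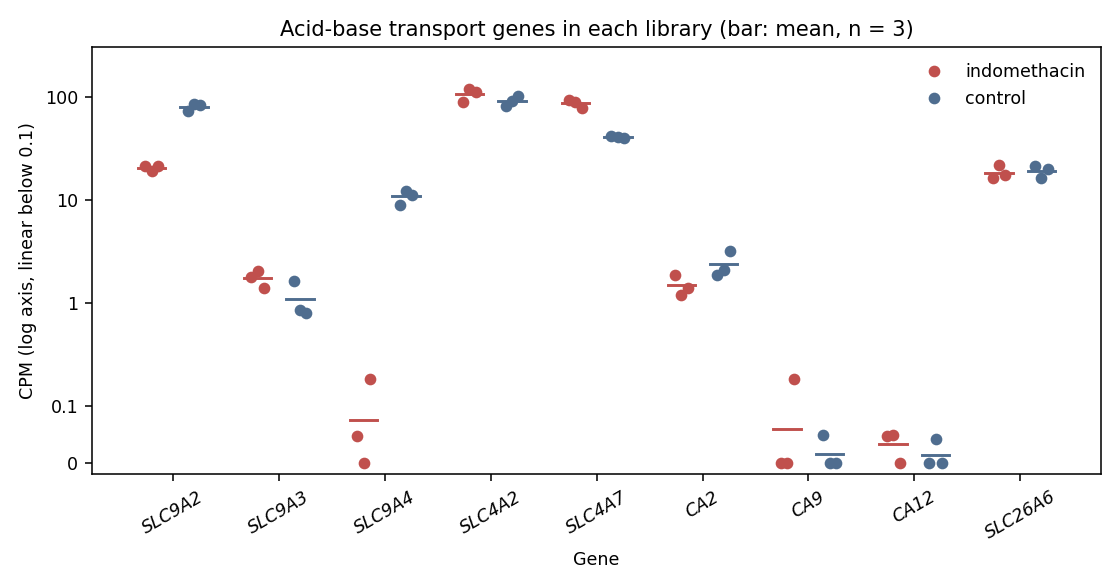
CPM of the 9 genes in each library on an axis that is logarithmic above 0.1 and linear below it, with the 3 indomethacin libraries left of the 3 control libraries of each gene and a bar at the mean. The groups of SLC9A2, SLC9A4 and SLC4A7 lie well apart, those of CA2 are separated by a narrow gap, those of SLC9A3, SLC4A2 and SLC26A6 overlap, and CA9 and CA12 lie near 0.

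The stretches before the start sites of the 3 genes that changed are shown because SLC9A4 and SLC9A2 are neighbours that both fell, by very different amounts, while SLC4A7 went the other way. Each is the 250 bases before the RefSeq start on build GRCh38.p14, read 5′ to 3′ on the gene's strand. Capitals mark matches on either strand to 4 motifs. These were the TATA box, searched as TATAAA, the CCAAT box, searched by the letters of its name, the GC box, searched as GGGCGG, and the AP-1 site, searched as TGANTCA with any base at N. Of the 9 genes, 8 were matched to a RefSeq promoter entry.
SLC9A4 (chr2:102472976-102473225, plus strand): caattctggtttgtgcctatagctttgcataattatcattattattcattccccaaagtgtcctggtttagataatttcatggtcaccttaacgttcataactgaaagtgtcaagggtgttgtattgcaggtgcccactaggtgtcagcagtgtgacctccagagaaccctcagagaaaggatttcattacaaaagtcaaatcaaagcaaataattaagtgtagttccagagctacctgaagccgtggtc
SLC9A2 (chr2:102619303-102619552, plus strand): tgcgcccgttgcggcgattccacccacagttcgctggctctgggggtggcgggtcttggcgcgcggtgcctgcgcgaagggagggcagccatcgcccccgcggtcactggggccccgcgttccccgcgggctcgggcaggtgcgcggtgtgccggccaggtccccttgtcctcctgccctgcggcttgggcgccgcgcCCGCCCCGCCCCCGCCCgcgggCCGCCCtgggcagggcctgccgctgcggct
SLC4A7 (chr3:27484385-27484634, minus strand): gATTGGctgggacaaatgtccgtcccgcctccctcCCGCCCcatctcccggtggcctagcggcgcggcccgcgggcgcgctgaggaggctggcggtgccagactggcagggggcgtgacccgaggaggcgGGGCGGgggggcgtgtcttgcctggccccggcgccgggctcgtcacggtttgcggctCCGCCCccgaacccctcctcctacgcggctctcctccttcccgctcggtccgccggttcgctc

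The SLC9A4 window held no match to any of the 4 motifs and was 40.4% G and C, with 2 CpG steps. The SLC9A2 window was 79.6% G and C, with 34 CpG steps and 4 GC box matches, some of which overlap. The SLC4A7 window was 76.0% G and C, with 32 CpG steps, 3 GC box matches and 1 CCAAT match, and the gene start in the count tables lies 36 bases before the RefSeq start. Among 35116 promoter windows of the same length, the median was 58.0% G and C. The share of these windows with less G and C was 13.4% for the SLC9A4 window, 96.3% for that of SLC9A2 and 91.3% for that of SLC4A7. Of all these windows, 42.6% held the GC box, 32.0% the CCAAT box, 10.7% the TATA box and 6.57% the AP-1 site. A match is a run of letters, and no factor was measured here.

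SLC9A4 encodes NHE4, an exchanger of the basolateral membrane of gastric epithelial cells. It lies on chromosome 2 from 102473226 to 102533972 on the plus strand (hg38, ENSG00000180251). It had 1, 0 and 3 counts in indomethacin replicates 1, 2 and 3, and 180, 287 and 237 counts in control replicates 1, 2 and 3. The groups did not overlap, and the highest indomethacin library stood at 0.180 CPM and the lowest control library at 8.83 CPM. The fit gave a log2 fold change of -7.15 (SE 0.42, n = 3 each; edgeR adjusted p = 6.9e-09), and no other of the 232 SLC-family genes tested had a lower one. Only 7 of all genes tested, or 0.0407%, had a log2 fold change at or below it. SLC9A4 passed the filter only through the control libraries, where it is high, and its fold change rests on 4 indomethacin counts. These ranks therefore describe the fit and are no further support for the fall. The 4 counts in indomethacin against 704 in control put the control level 156 times as high per scaled library (exact 95% interval 60.7 to 575, covering counting error only). Without indomethacin replicate 3, which held 3 of the 4 counts, the log2 fold change was -8.48.

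SLC9A2 encodes NHE2, an exchanger of the apical membrane of gut epithelium. It lies on chromosome 2 from 102619553 to 102711355 on the plus strand (ENSG00000115616), and 85580 bases separate the end of SLC9A4 from its start. Its level was 21.3, 19.1 and 21.0 CPM in the indomethacin libraries, against 73.0, 84.3 and 82.0 CPM in the control libraries. Every indomethacin library lay below every control library. SLC9A2 fell 3.90-fold, with a log2 fold change of -1.96 (SE 0.11; edgeR adjusted p = 4.7e-09; n = 3 each).

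The genes around this pair did not move as far. MFSD9, the next protein-coding gene after SLC9A2, had a log2 fold change of -0.46 (SE 0.14; edgeR adjusted p = 0.0096; n = 3 each), TMEM182 beyond it one of 0.05, and IL18R1, a receptor subunit for interleukin 18 on the other side of SLC9A4, one of 0.04. TMEM182 and IL18R1 did not pass. IL18RAP, IL1RL1 and POU3F3, also among the nearest protein-coding genes, had too few counts to be tested.

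**Figure D2:**
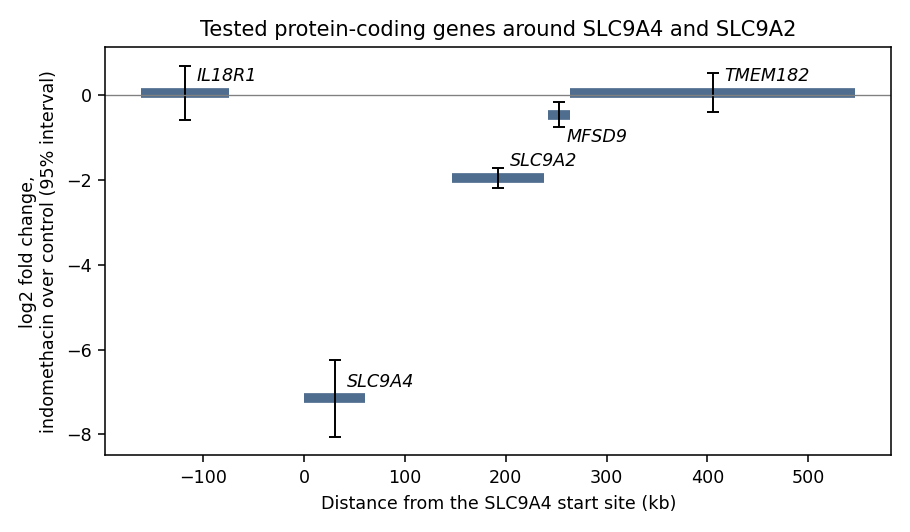
Log2 fold change, indomethacin over control, of the tested protein-coding genes around SLC9A4 and SLC9A2 against distance in kb from the start site of SLC9A4. Blue bars span each gene and black lines are 95% intervals, with SLC9A4 at -7.15, SLC9A2 at -1.96, MFSD9 at -0.46 and IL18R1 and TMEM182 near 0.

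SLC9A3 encodes NHE3, the apical exchanger that absorbs sodium in gut and kidney. It lies on chromosome 5 from 470456 to 524449 on the minus strand (ENSG00000066230) and was low, at 1.76, 2.04 and 1.38 CPM in the indomethacin libraries and 1.62, 0.853 and 0.798 CPM in the control libraries. The groups overlapped through control replicate 1. The log2 fold change was 0.68 (95% interval -0.09 to 1.44; edgeR adjusted p = 0.11; n = 3 each) and did not pass, but without control replicate 1 it was 1.01 and passed (edgeR adjusted p = 0.033). SLC9A3 shares 2363 of its 5754 exonic bases (41.1%) with PP7080 on its own strand, which had 3 counts over the indomethacin libraries and 1 over the control libraries. Reads from these bases are ambiguous under any strand setting, so the level of SLC9A3 is itself uncertain. It also shares 839 exonic bases with EXOC3 and 830 with SLC9A3-AS1, both on the other strand. SLC9A3-AS1 had 938 counts over the indomethacin libraries and 512 over the control libraries, against 101 and 70 for SLC9A3 itself, and whether strand was used in counting is not given in the sources used here, so the SLC9A3 values are uncertain.

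Of 8 other SLC9 genes looked at, 5 were tested (median log2 fold change 0.20). Of these, 1 was higher, where 30.6% of all genes tested were higher, and the other 4 did not pass. The higher one was SLC9C1, known as a sperm exchanger, with 134 counts over the indomethacin libraries and 7 over the control libraries (log2 fold change 4.33, or 4.92 without control replicate 1). SLC9C1 passed the filter only through the indomethacin libraries, where it is high, so its call is no result about the list. SLC9A7, an exchanger of the Golgi, averaged 101 ± 9.73 CPM in indomethacin and 87.7 ± 4.48 CPM in control (SD, n = 3 each), and its log2 fold change of 0.20 did not pass. SLC9A5 and SLC9B2, with log2 fold changes of -0.25 and 0.35, did not pass either. SLC9A5 shares 571 exonic bases with FHOD1 on the other strand, and SLC9B2 shares 397 with BDH2 on its own strand. Of 14 partners, scaffolds and regulatory kinases of these exchangers, 11 were tested (median log2 fold change -0.25). Of these, 6 were lower and 3 higher, against 31.0% lower and 30.6% higher of all genes tested. TESC, a calcium-binding protein, stood at 31.5 ± 4.31 CPM in indomethacin and 178 ± 14.2 CPM in control (SD, n = 3 each; log2 fold change -2.49). The scaffolds NHERF1 and NHERF2, which tether NHE3 at the apical membrane, fell with log2 fold changes of -1.28 and -1.32, and the kinase OXSR1 rose with one of 0.81. PDZK1, another scaffold of this group, named here after its values were seen, rose with one of 1.61 (edgeR adjusted p = 0.00016), with 272 counts over the indomethacin libraries and 100 over the control libraries.

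SLC4A7 encodes NBCn1, a cotransporter that brings sodium and bicarbonate into the cell without net charge. It lies on chromosome 3 from 27372721 to 27484420 on the minus strand (ENSG00000033867) and had 92.8, 89.5 and 78.1 CPM in the indomethacin libraries and 41.4, 40.7 and 39.6 CPM in the control libraries. Every indomethacin library lay above every control library. SLC4A7 rose 2.14-fold (log2 fold change 1.10, edgeR adjusted p = 8.2e-07; SE 0.11, n = 3 each).

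SLC4A2 encodes AE2, the chloride-bicarbonate exchanger of the basolateral membrane of parietal cells. It lies on chromosome 7 from 151057210 to 151076526 on the plus strand (ENSG00000164889) and had 88.9, 119 and 110 CPM in the indomethacin libraries and 80.2, 90.6 and 102 CPM in the control libraries. The groups overlapped, and the log2 fold change of 0.22 did not pass (95% interval -0.06 to 0.50; edgeR adjusted p = 0.15; n = 3 each). It passed with upper-quartile factors (0.34, edgeR adjusted p = 0.028), which moved the median of all genes tested to 0.16, and without indomethacin replicate 1 (0.31, edgeR adjusted p = 0.045).

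SLC26A6 encodes an apical exchanger of chloride for bicarbonate, oxalate and other anions. It lies on chromosome 3 from 48625723 to 48635493 on the minus strand (ENSG00000225697) and had 16.2, 21.5 and 17.2 CPM in the indomethacin libraries and 21.0, 16.2 and 19.8 CPM in the control libraries. The groups overlapped almost fully. The log2 fold change of -0.05 (95% interval -0.37 to 0.27; edgeR adjusted p = 0.78; n = 3 each) turned to 0.06 with upper-quartile factors and to 0.01 without indomethacin replicate 1.

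Of 18 other genes of the SLC4 and SLC26 families and CFTR, 9 were tested (median log2 fold change -2.48). Of these, 5 were lower and 3 higher, against 31.0% lower and 30.6% higher of all genes tested. CFTR, the chloride and bicarbonate channel, stood at 8.94, 8.80 and 18.0 CPM in the indomethacin libraries and 194, 312 and 286 CPM in the control libraries (log2 fold change -4.48, edgeR adjusted p = 6.5e-09; SE 0.26, n = 3 each). SLC4A4, which encodes the electrogenic sodium-bicarbonate cotransporter NBCe1, averaged 3.19 ± 0.279 CPM in indomethacin and 27.9 ± 0.650 CPM in control (SD, n = 3 each; -3.13). SLC4A8, a sodium-driven chloride-bicarbonate exchanger, and SLC26A2, a sulfate transporter, had log2 fold changes of -3.24 and -2.48. SLC4A8 shares 392 of its 17920 exonic bases with GALNT6 and SLC26A2 shares 246 with TIGD6, both on the other strand. GALNT6 had 641 counts over the indomethacin libraries and 4835 over the control libraries, beside 50 and 538 for SLC4A8, so the SLC4A8 value is uncertain.

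**Figure D3:**
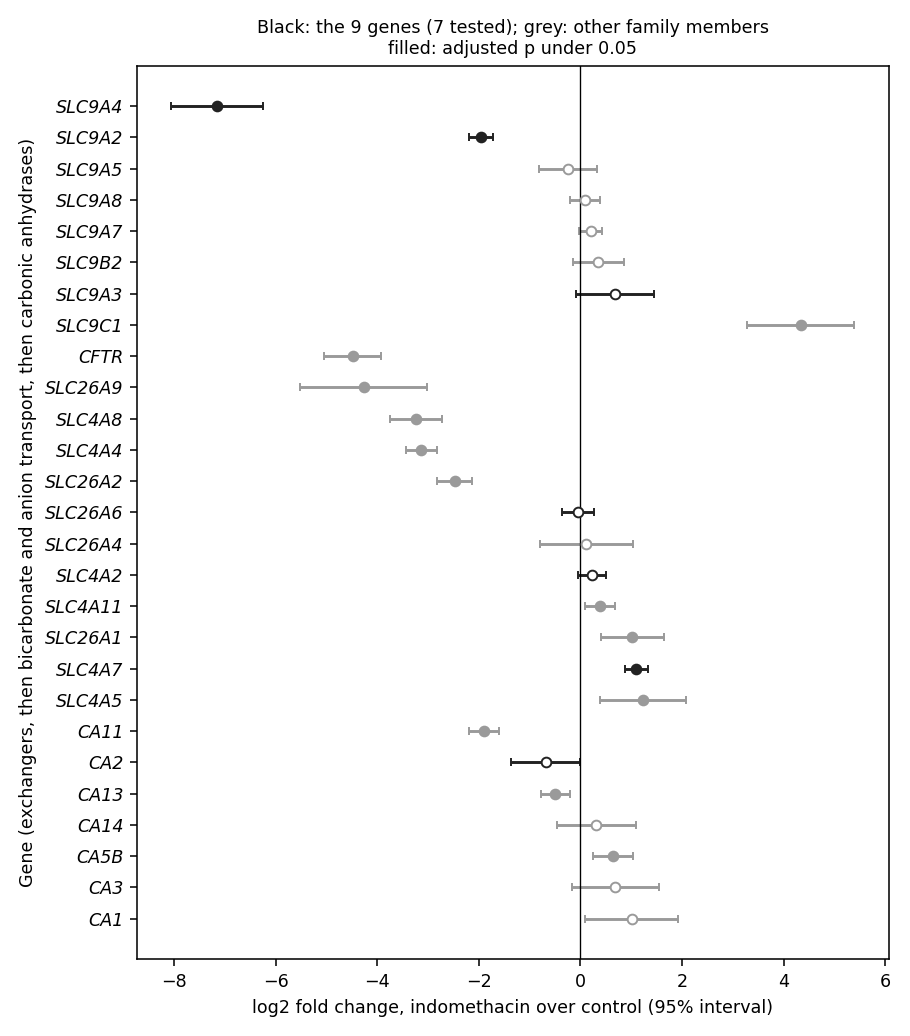
Log2 fold change, indomethacin over control, with its 95% interval for the tested genes looked at in the exchanger, bicarbonate and anion transporter, and carbonic anhydrase families. Black marks the 7 tested genes of the 9 chosen, grey the other family members, and filled points have an adjusted p under 0.05; SLC9A4 at -7.15 and SLC9A2 at -1.96 lie left of 0 and SLC4A7 at 1.10 lies right of it.

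CA2, the fast cytosolic carbonic anhydrase, lies on chromosome 8 from 85463968 to 85481493 (ENSG00000104267). It had 1.85, 1.19 and 1.38 CPM in the indomethacin libraries and 1.86, 2.09 and 3.19 CPM in the control libraries. The groups did not overlap, as was the case for 67.0% of all genes tested in either direction, but the gap between indomethacin replicate 1 and control replicate 1 was narrow. The log2 fold change was -0.68 (95% interval, without adjustment, -1.36 to -0.01; edgeR adjusted p = 0.074; n = 3 each) and did not pass. It passed with no filter on low counts (-0.79, edgeR adjusted p = 0.046), without control replicate 1 (-0.88, edgeR adjusted p = 0.037) and without indomethacin replicate 1 (-0.91, edgeR adjusted p = 0.041), so the call depends on these settings.

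CA9 and CA12 are carbonic anhydrases of the cell surface, and CA9 is a target of the hypoxia-inducible factors. CA9 (chromosome 9, 35673918 to 35681159, ENSG00000107159) had 0, 0 and 3 counts in the indomethacin libraries and 1, 0 and 0 in the control libraries. CA12 (chromosome 15, 63321378 to 63381846, ENSG00000074410) had 1, 1 and 0 counts in the indomethacin libraries and 0, 1 and 0 in the control libraries. Both were at or under a floor of 3 counts over each group, no fold change is given, and a difference was not detectable at this depth. A library with 0 counts allows a level of up to 0.143 to 0.180 CPM in indomethacin and 0.128 to 0.147 CPM in control, by counting error only. ARHGEF39, which shares 581 of the 1608 exonic bases of CA9 on the other strand, had 185 counts over the indomethacin libraries and 855 over the control libraries.

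Of the 12 other carbonic anhydrases, 6 were tested (median log2 fold change 0.48). Of these, 2 were lower and 1 higher, against 31.0% lower and 30.6% higher of all genes tested. CA11, a related protein without enzyme activity, stood at 5.93 ± 0.376 CPM in indomethacin and 22.1 ± 0.742 CPM in control (SD, n = 3 each; log2 fold change -1.90, edgeR adjusted p = 4.5e-08). The cytosolic CA13 fell with a log2 fold change of -0.50. The mitochondrial CA5B rose with one of 0.64, but it has a pseudogene copy, CA5BP1, so its value is uncertain. CA1, with a log2 fold change of 1.01, did not pass (edgeR adjusted p = 0.053). Without control replicate 2 it was 1.67 and passed (edgeR adjusted p = 0.0048), and without control replicate 3 it was 0.59.

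Ordered by RPKM, which is CPM divided by exon length in kilobases, the 9 genes took different places in the 2 groups. In indomethacin SLC4A2 came first (14.0 ± 2.06), then SLC4A7 (9.02 ± 0.804), SLC9A2 (3.32 ± 0.191), SLC26A6 (2.87 ± 0.443), CA2 (0.736 ± 0.169) and SLC9A3 (0.300 ± 0.0573), with CA9, SLC9A4 and CA12 under 0.05 (SD, n = 3). In control SLC9A2 came first (12.9 ± 0.967), then SLC4A2 (12.0 ± 1.46), SLC4A7 (4.22 ± 0.0963), SLC26A6 (2.98 ± 0.393), SLC9A4 (2.36 ± 0.382), CA2 (1.19 ± 0.354) and SLC9A3 (0.189 ± 0.0797), with CA9 and CA12 last. Neighbours whose libraries overlapped were SLC9A2 and SLC26A6, and CA9, SLC9A4 and CA12, in indomethacin, and SLC9A2 and SLC4A2, SLC26A6 and SLC9A4, and CA9 and CA12, in control.

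The other wider lists bear on the same functions. Of 10 genes of parietal cell acid secretion, 7 had too few counts to be tested. The 3 tested fell, where 31.0% of all genes tested were lower. They were the potassium channel genes KCNQ1 (-0.85) and KCNJ15 (-3.25) and the intrinsic factor gene CBLIF (-1.45), all at under 5 CPM. CBLIF, with 18 counts over the indomethacin libraries and 56 over the control libraries, passed the filter only through the control libraries. With the filter of 1 CPM in 3 libraries, KCNJ15 and CBLIF were not tested. Genes as low as KCNJ15 and CBLIF enter through the group where they are higher, so their falls are no result about the list. KCNQ1 had 152 counts over the indomethacin libraries and 308 over the control libraries. It stayed tested with that filter (-0.80, edgeR adjusted p = 0.0043). With 7 of the 10 genes not tested, the list gives no result as a whole. KCNQ1 shares 121 exonic bases with KCNQ1OT1 on the other strand, which had 9657 counts over the indomethacin libraries and 4657 over the control libraries, so its value is uncertain. Of 12 genes of lactate transport and proton sensing, 6 were tested (median log2 fold change -0.04). Of these, 3 were lower and 2 higher, against the same 31.0% lower and 30.6% higher of all genes tested. SLC16A1, a transporter of lactate with a proton, averaged 169 ± 10.3 CPM in indomethacin and 542 ± 5.15 CPM in control, and SLC16A3, the lactate exporter of glycolytic cells, 142 ± 29.8 CPM in indomethacin and 35.2 ± 1.15 CPM in control (SD, n = 3 each). SLC16A3 shares 482 exonic bases with CSNK1D on the other strand. The chaperone of both, BSG (-1.08) and the proton-gated channel ASIC1 (-2.52) fell. Of 17 genes of the hypoxia-inducible factor pathway, all were tested (median log2 fold change 0.81). Of these, 10 were higher and 3 lower, against 30.6% higher and 31.0% lower of all genes tested. The log2 fold change was 6.10 for NDRG1, 2.20 for VEGFA and 0.88 for SLC2A1, which rose, and -1.71 for LDHA, which fell, while CA9 stayed at or under the floor. These lists were chosen with earlier results known, and their members that passed the filter are not all members.

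The genes whose log2 CPM, centred on the gene's mean, lay closest to a member's over the 6 libraries were TENT5A and THEM4 for SLC9A2 (Euclidean distances 0.158 and 0.161), MYO5B and an antisense gene without a name for SLC4A7 (0.11 and 0.12), and REG1A and SMPX for SLC9A4 (0.914 and 0.976). With 2 groups of 3 libraries, closeness mostly reflects a similar fold change for SLC9A2 and SLC4A7. For SLC9A4, at -7.15, the nearest genes had log2 fold changes of -5.64 (REG1A) and -6.75 (SMPX). Over the indomethacin libraries REG1A had 31 counts and SMPX had 4, so their closeness rests on values near the floor. The antisense gene was also low, with 46 counts over the indomethacin libraries and 22 over the control libraries.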

How the data were processed

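Raw counts per gene were deposited by the authors, a table for each library of stranded, ribosome-depleted total RNA, with exon coordinates, strand and length, per the file headers. HISAT2 2.1.0, cutadapt 1.16, FastQC 0.11.7, featureCounts and DESeq2 are named with build hg38, per the submitters' processing notes, and strand setting, multi-mapping and annotation release are not given in the sources used here. The entry of 1 gene was broken in every file, and dropping its 3 lines of 60607 gave 60604 genes. A gene name table supplied symbols, and GENCODE 29 supplied gene types.

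Groups follow the labelled treatment. Genes kept by filterByExpr (17200) were scaled by TMM and tested with edgeR 4.0.16 (R 4.3.3; glmQLFit and glmQLFTest, group as the only term), with Benjamini-Hochberg adjustment over all genes tested and a threshold of 0.05. Each standard error was derived from the test statistic, and intervals are 95%. CPM uses TMM-scaled library sizes, RPKM divides it by exon length, and nearest genes used log2 CPM with a prior count of 2. Alternatives were DESeq2 1.42.0, limma-voom (limma 3.58.1), RLE and upper-quartile factors, no mitochondrial or small structured RNAs, no filter, 1 CPM in 3 libraries, a block for the replicate number, and fits with each replicate left out. No pair of libraries within a group was alike within sampling noise (ratio of chi-square to its degrees of freedom 7.58 to 25.7), and all 6 entered as separate samples.

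Named genes were all 9 members, up to 4 genes of each wider list with the smallest adjusted p, the 3 nearest protein-coding genes on each side of SLC9A4 and SLC9A2, the 2 nearest patterns of each member that passed, and cell type markers. Some genes of the wider families are not reported here. The members and lists were chosen with earlier results of these data known.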

Additional observations from a re-analysis of the deposited data

How the results depend on the processing

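SLC9A2, SLC9A4 and SLC4A7 kept their direction and their call under all 14 alternatives, with log2 fold changes of -2.08 to -1.84, -8.48 to -6.58 and 0.99 to 1.22. The number of the 9 genes called higher was 2 instead of 1 with upper-quartile factors, and 1 to 2 when a replicate was left out, and the number called lower was 2 to 3. SLC9A3 ranged from 0.47 to 1.01 and CA2 from -0.91 to -0.45 when a replicate was left out, and CA2 also passed with no filter (-0.79). SLC4A2 passed with upper-quartile factors (0.34) and ranged from 0.082 to 0.31 when a replicate was left out. SLC26A6 changed sign with upper-quartile factors (0.064), and ranged from -0.20 to 0.0093 when a replicate was left out. The cause of these changes was not tested, beyond that upper-quartile factors moved the median of all genes tested to 0.16, against 0.04 with TMM. SLC9A7 and CA1, which did not pass, did so under 1 and 7 alternatives. Calls over all genes stayed within 4635 to 6124 higher and 4686 to 6276 lower.

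Whether same-numbered libraries of the 2 groups share a culture or a preparation is not stated. The correlations of their deviations from the group means were 0.0233, 0.0117 and 0.132. Those of differently numbered libraries were -0.143 to 0.131. With 3 libraries in each group, these values cannot show whether the libraries were paired. With the replicate number as a block, SLC9A2 had a log2 fold change of -1.96, SLC9A4 of -7.14 and SLC4A7 of 1.09, and the calls over all genes were 5249 higher and 5352 lower. Depth limits SLC9A3 and CA2, at about 1 to 3 CPM, and CA9 and CA12, near 0 counts.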
